A study of Mus musculus with 18 samples.

Results

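Memory-phenotype and naive CD8 T cells of Dock2-deficient mice were compared across all genes. The comparison took in 10 of the 18 libraries of the series, 5 of CD44hi (memory-phenotype) cells and 5 of CD44lo (naive) cells, as their labels give them. Of 46983 genes in the deposited table, the 9437 with a normalized value of at least 10 in at least 4 of the 18 libraries were described. The Dock2-deficient mice carry the genotype Dock2-Hsd/Hsd, which the labels equate with Dock2-/-, and their column names write the strain as C57L6NHsd. The strain field of the same samples reads C57BL/6J, as it does for the wild-type mice, from which the other 8 libraries came (4 naive, 4 memory). The labels give no treatment, age or sex, and nothing says that the 5 libraries of a group came from 5 animals, so p-values measure the spread between these libraries, which may be in part technical. The deficiency is of the germ line: every cell of the mouse carries it, and all 10 libraries share it.

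DOCK2 is a guanine nucleotide exchange factor that activates the small GTPase Rac in leukocytes, and it drives the actin remodelling behind chemokine-guided migration and contact with antigen-presenting cells. CD8 T cells that have not met antigen express little CD44, circulate through lymph nodes and keep a quiescent programme. Cells of memory phenotype carry high CD44 and the IL-2/IL-15 receptor beta chain, which lets them respond to IL-15, and they hold effector genes ready for use. In unimmunized mice many of them arise without foreign antigen and are then called virtual memory cells, which display low alpha 4 integrin. The part of the series described here sets such cells beside naive cells where Dock2 is missing.

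The libraries were made from total RNA by Smart-seq2, a full-length method that keeps no strand. They held 2215987 to 8257768 expected reads, of which 37.0% to 69.0% fell on the ribosomal RNA gene Rn18s-rs5, so that 850659 to 2830470 reads bore on all other genes, and 12363 to 14152 genes lay above 0. The lowest share of Rn18s-rs5 was in memory library 5. One read was worth 0.512 to 1.78 units of normalized value, so a value under about 5 rests on few reads. Library 1 of each group held Xist RNA and the other 4 of each did not. Dock2 RNA itself was present in all 10 libraries, at 295.9, 202, 373, 174 and 171 in naive libraries 1 to 5 and at 225, 207, 148, 279.6 and 61.03 in memory libraries 1 to 5. The groups overlapped and the difference did not pass the test (log2 change -0.50 ± 0.34, adjusted p = 0.57); a value summed over the gene does not test the allele. Dock2 overlaps Fam196b by 107819 bases on the other strand, and reads in that stretch cannot be assigned by strand. Other named genes, among them Runx2, Ccr9, Pogk and Itgae, also overlap a gene on the other strand. The sort was tested by Cd44, at 3.64, 21.7, 0, 1.604 and 2.99 in the naive and 172, 209, 222, 188 and 179.6 in the memory libraries, with no overlap.

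Memory cells differed from naive cells in 266 genes, 2.82% of those tested, by limma's moderated test on log2(value + 1) at an adjusted p under 0.05. In memory cells 167 genes (1.77%) were higher and 99 (1.05%) were lower, while the median change over all 9437 genes was -0.01. Of the rises, 142 of the 167 were at least 2-fold, 82 at least 4-fold and 25 at least 16-fold, and the corresponding counts among the 99 falls were 88, 41 and 5. The median change was 1.92 among the rises and -1.73 among the falls. Of the same 167, 50 started from a naive mean under 5, and 9 were listed at 0 in all 5 naive libraries, 4 of them Ly49 receptor genes. Those 9 passed the filter only through other libraries. Among the falls, 23 ended at a memory mean under 5 and none was listed at 0 in all 5 memory libraries. The 5 memory values lay wholly above or below the 5 naive values for 147 of the 167 rises and 77 of the 99 falls; over all genes tested this held for 3.93%, 2.35% upward and 1.58% downward. The balance of rises and falls depended on the scaling: with libraries rescaled to a common total without Rn18s-rs5 and mitochondrial genes, 98 genes were higher and 157 lower, as the median of all genes moved to -0.31. Each log2 change below is as deposited, memory minus naive, with its standard error, and can be read against that shift. For genes near 0 in 1 group it depends on the added 1. The gene lists below were chosen with earlier results of these data known, which may raise their shares of calls. A call described below as lost without a library is one that no longer passed when that library alone was left out.

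**Figure D1:**
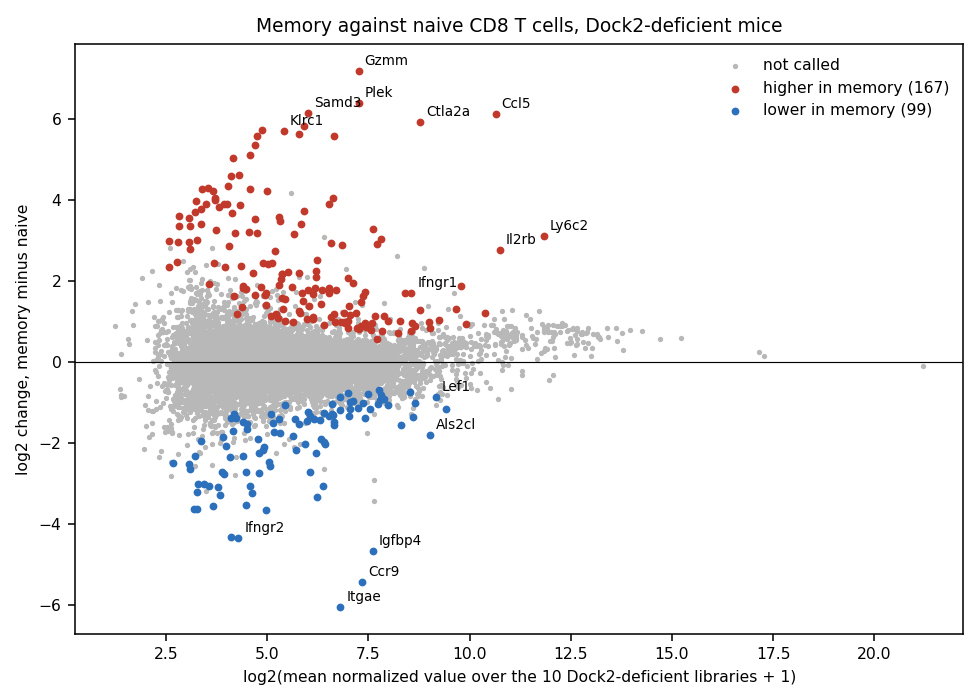
Change of each of the 9437 genes between memory and naive cells of Dock2-deficient mice (y axis, log2, memory minus naive) against its mean level (x axis, log2 of the mean normalized value plus 1 over the 10 libraries). Red points are the 167 genes called higher in memory, blue points the 99 called lower and grey points the genes not called; the largest rise is Gzmm at 7.19 and the largest fall Itgae at -6.05.

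The 20 largest rises among well measured genes were led by the granule protease gene Gzmm and by Plek, which encodes pleckstrin, a substrate of protein kinase C in blood cells. Plek was at 0, 11.5, 4.10, 0.802 and 3.98 in naive libraries 1 to 5 and at 289, 289, 258, 400.1 and 275 in memory libraries 1 to 5. Every naive value was low, and its lowest memory value was 258 in library 3, a log2 change of 6.39 ± 0.48 (adjusted p = 1.9e-08). Samd3 followed the same course, at 0, 4.76, 2.05, 0 and 0 in naive cells and 153, 129.7, 119, 136 and 92.9 in memory cells, with a change of 6.14 ± 0.43. Gas7, a cytoskeletal adaptor of the F-BAR family, was at or near 0 in 4 naive libraries and at 19.5 in naive library 2, against 71.1 to 136 in memory cells (5.63 ± 0.70). Itm2a, a membrane protein gene, differed less but more evenly, at 29.1, 44.2, 25.1, 42.5 and 32.9 in naive cells and 209, 324, 323, 449 and 469 in memory cells (3.29 ± 0.22, adjusted p = 6.2e-09). The nuclear protein gene Pogk, Ifitm10 of the interferon-induced transmembrane family and Aim1 rose by 3.41, 2.51 and 2.26.

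Among the 20 largest falls were genes of several functions. Igfbp4, which encodes a secreted binding protein for insulin-like growth factors, was at 355, 264, 261, 511 and 484 in naive cells and 7.54, 10.5, 21.02, 11.4 and 20.8 in memory cells. All naive values were far above the highest memory value, 21.02 in library 3, and the change was -4.66 ± 0.31 (adjusted p = 6.2e-09). Rgcc, a regulator of the cell cycle, went from 136 ± 43.5 to 12.5 ± 4.03 (mean ± SD, n = 5 in each group here and below; -3.33 ± 0.25). Dapl1, Abca3 (a lipid transporter), Ggt1 (a glutathione-cleaving enzyme) and the pseudokinase gene Trib2 fell by 2.25, 2.18, 2.04 and 2.02. Lrrc8a, a subunit of the volume-regulated anion channel, was at 153, 109, 199, 72.4 and 128 in naive cells and 16.5, 40.05, 31.4, 66.7 and 21.4 in memory cells, so that the highest memory value stayed just under the lowest naive value (-1.96 ± 0.40, adjusted p = 0.005). Als2cl fell by 1.81 and Rcn3, an endoplasmic reticulum calcium-binding protein gene, by 1.91. Dtx1, a Notch pathway ubiquitin ligase gene, was at 262, 213, 207, 256 and 253 in naive cells and at 199, 82.7, 51.6, 77.5 and 88.5 in memory cells, where library 1 stood close to the naive range (-1.39 ± 0.27).

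**Figure D2:**
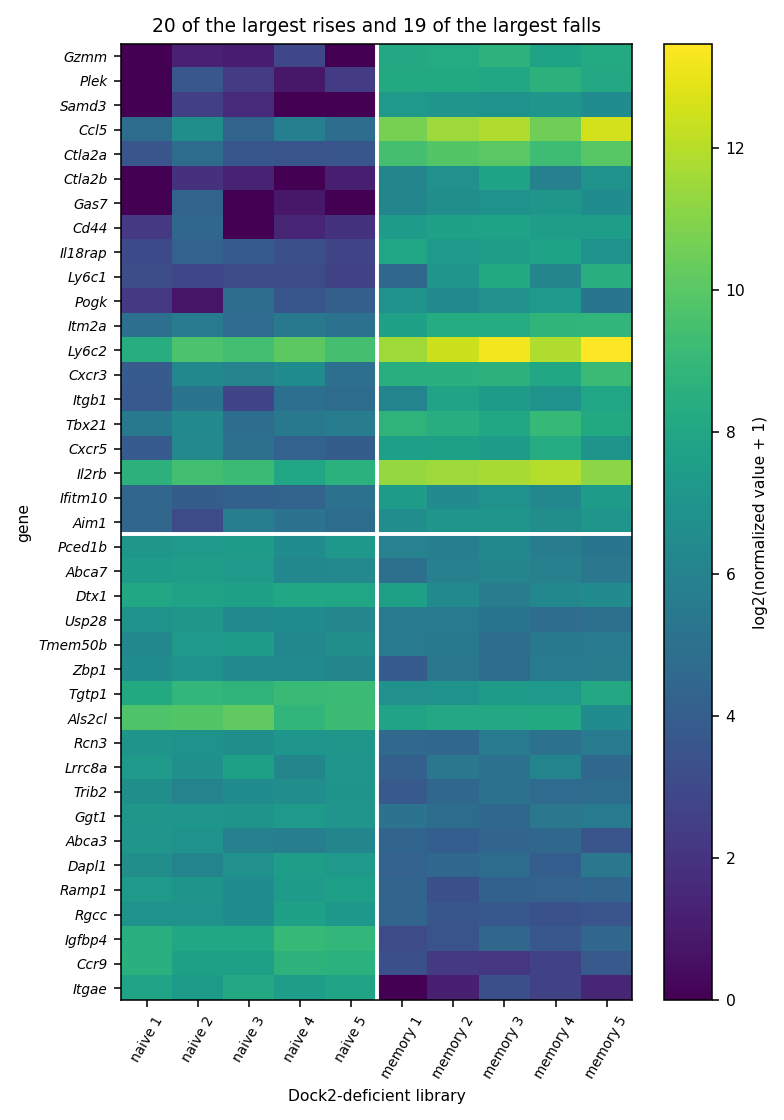
Level of the 20 largest rises (above the white line) and 19 of the 20 largest falls (below it) in each of the 10 Dock2-deficient libraries (columns), as log2 of the normalized value plus 1 (colour). Genes average at least 50 across these libraries and have groups that do not overlap, so the colour changes at the vertical line in every row; Gzmm is the largest rise at 7.19 and Itgae the largest fall at -6.05.

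Transcription factor genes of effector and memory T cells changed in 4 of 20 tested members (20%, against 2.82% of all genes), all upward. Runx2, a Runt-domain factor, was at 6.36, 14.8, 0, 3.21 and 4.98 in naive cells and 46.4, 29.6, 63.8, 53.6 and 35.4 in memory cells; every memory library lay above every naive one (3.19 ± 0.56, adjusted p = 0.0013). Tbx21, which encodes T-bet, was at 42.7, 81.5, 28.7, 42.5 and 50.8 in naive cells and 433, 331, 272, 517 and 292 in memory cells (2.92 ± 0.36). Eomes, the related T-box factor, was at 4.55, 60.5, 24.6, 13.6 and 21.1 and 78.1, 69.2, 67.03, 79.2 and 57.5; naive library 2 reached into the memory range, the other 4 did not (1.86 ± 0.43, adjusted p = 0.018; with rescaled libraries 1.55, adjusted p = 0.11; with only the 10 Dock2-deficient libraries fitted, adjusted p = 0.057). The fourth, Stat4, transducer of IL-12 signals, rose by 1.02 (adjusted p = 0.048), a call lost without memory library 1, 2, 3, 4 or 5 or naive library 1, 4 or 5 (adjusted p up to 0.14). Prdm1 (1.70), Hopx (1.52) and Irf8 (1.46) had positive and Irf4 (-1.54) and Id2 (-0.73) negative values without passing. The list's median was 0.25, or -0.06 with rescaled libraries.

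Of the 21 tested factors of the naive and stem-like state 1 was called (4.76%): Lef1, a partner of beta-catenin, fell from 739 ± 109 to 416 ± 120.4 (-0.86 ± 0.20, adjusted p = 0.018), a call lost without memory library 2 or 3 or naive library 1 or 5 (adjusted p up to 0.077). Lef1 overlaps the model Gm43352 by 1620 bases on the other strand, and reads in that stretch cannot be told apart. Its relative Tcf7 was at 795, 816, 880.1, 748 and 722 in naive cells and 682, 601, 742, 513 and 1029.6 in memory cells, with overlapping groups (change -0.19 ± 0.18, adjusted p = 0.71). Bach2 (-1.14) and Foxo1 (-0.58), which hold T cells in quiescence, did not pass either (adjusted p = 0.13 and 0.22). The list's median was -0.34.

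Cytokine receptor chains changed in 11 of 26 tested members (42.3%), 8 upward and 3 downward, with a median of 0.55 (0.28 with rescaled libraries, where 3 were called higher and 3 lower). Il2rb, the chain shared by the IL-2 and IL-15 receptors, was at 400.1, 675, 581, 244 and 382 in naive cells and 2589.9, 2861, 3317, 3992 and 2209.6 in memory cells, with no overlap (2.77 ± 0.24, adjusted p = 1.5e-07). Both chains of the IL-18 receptor rose. Il18r1, the binding chain, was at 32.7, 37.03, 28.1, 10.4 and 30.9 in naive cells and 83.4, 98.8, 91.7, 177 and 44.9 in memory cells (1.78 ± 0.36; with rescaled libraries 1.46, adjusted p = 0.091). Il18rap, the signalling chain, was at 7.27, 17.7, 13.3, 8.82 and 5.97 and 252, 149, 177, 222 and 119 (4.04 ± 0.53). The other rises kept under every omission of 1 library were Ifngr1 (below), Il4ra (0.89 ± 0.19) and Il10rb (1.02 ± 0.21); with rescaled libraries the last 2 no longer passed (adjusted p = 0.24 and 0.069). Il10ra (1.32) was lost without memory library 3 (adjusted p = 0.052) and Il12rb2 (2.46), a chain of the IL-12 receptor, without memory library 1, 2 or 4 or naive library 2, 3 or 4 (up to 0.12). Il7r, the receptor of the survival cytokine IL-7, was at 245 ± 57.3 in naive cells and 355 ± 47.3 in memory cells and did not pass (adjusted p = 0.14).

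The chains of the interferon gamma receptor went in opposite directions. Ifngr1, the ligand-binding chain, was at 152, 182, 152, 202 and 189 in naive libraries 1 to 5 and at 438, 536, 603, 523 and 795 in memory libraries 1 to 5. The lowest memory value, 438 in library 1, was above the highest naive value, 202 in library 4, a rise of 1.70 ± 0.17 (adjusted p = 1.1e-06). Ifngr2, the signalling chain, was at 26.7, 27.9, 30.7, 49.7 and 43.8 in naive cells and was listed at 0, 3.70, 0, 0 and 2.65 in memory cells. It was thus at 0 in 3 memory libraries and near the value of a few reads in the other 2 (-4.34 ± 0.50, adjusted p = 9.3e-06). In wild-type cells the same chains changed by 1.54 and -3.83, and neither difference between genotypes passed (adjusted p = 0.91 and 0.91).

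Of the transforming growth factor beta receptors, the co-receptor Tgfbr3 was at 59.1, 68.6, 86.5, 18.4 and 36.8 in naive cells and 8.88, 16.1, 8.59, 16.2 and 0.885 in memory cells (-2.47 ± 0.54, adjusted p = 0.011). Acvrl1, a type I receptor of the family, was at 18.2, 9.51, 10.2, 29.7 and 15.9 and was at or near 0 in all 5 memory libraries, with a highest value of 1.23 (-3.62 ± 0.55). Tgfbr1 (0.91) and Tgfbr2 (-0.78) did not pass. Smad3, a transducer of these receptors that was picked out after its values were seen, was at 86.4, 38.7, 82.9, 63.4 and 21.9 in naive cells and 268, 195, 192, 325 and 112 in memory cells (1.96 ± 0.35, adjusted p = 0.0018).

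Among JAK, STAT and SOCS genes 2 of 20 were called (10%), 1 downward and 1 upward; the list's median was -0.25. The call of Ptpn2 (0.98), a phosphatase of the pathway, was lost without memory library 2, 3, 4 or 5 or naive library 1, 2 or 3 (adjusted p up to 0.15). Stat5b (-0.68), the main transducer of IL-2 and IL-15, had groups that did not overlap but did not pass (adjusted p = 0.19).

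Interferon-stimulated genes were called in 8 of 53 tested members (15.1%), all downward, and the list's median was -0.33 (-0.65 with rescaled libraries, where 9 were lower). The 8 were Gbp2, Gbp6, Gbp9 and Gbp10 of the guanylate-binding proteins, Igtp, Tgtp1 and Tgtp2 of the immunity-related GTPases, which attack the vacuoles of intracellular parasites, and Zbp1, a sensor of Z-form nucleic acids. Tgtp2 was at 429.7, 542, 503, 626 and 592 in naive cells and 194, 334, 254, 267 and 292 in memory cells (-1.01 ± 0.18, adjusted p = 0.0018). Igtp was at 237, 326, 354, 343 and 288 and 119, 234, 171, 142 and 159; memory library 2 came close to naive library 1 without reaching it (-0.92 ± 0.21, adjusted p = 0.012). Zbp1 fell from 90.5 ± 17.6 to 34.9 ± 14.6 (-1.45 ± 0.29). Gbp6 went from 206 ± 42.1 to 97.4 ± 37.6 (-1.13 ± 0.24) and Gbp9 from 182 ± 57.5 to 82.4 ± 27.8 (-1.17 ± 0.26). Gbp10 was at 20.8, 24.2, 46.5, 51.6 and 45.1 in naive cells and 0, 13.3, 7.80, 0 and 1.52 in memory cells (-3.52 ± 0.78). The call of Gbp2 (-1.19 ± 0.31) was lost without memory library 1, 2, 3 or 5 or naive library 1, 2, 4 or 5 (adjusted p up to 0.12). Irgm1 (-0.65, adjusted p = 0.055) just missed the threshold, while antiviral genes such as Ifit1 (-0.25), Mx1 (0.74) and Irf7 (0.23) did not pass. Tgtp1 and Tgtp2 are near-identical copies, Gbp6 and Gbp10 overlap a further model named Gbp6, and Gbp9 overlaps Gbp4 and Gbp8, Igtp overlaps Irgm2 and Tgtp1 overlaps Gm12185, so how reads were split among them is uncertain.

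The promoters of 3 of these GTPase genes are shown because they share 1 arrangement of motifs. The sequences are from RefSeq (GRCm38.p6, 250 bases before to 50 after the start site, 5′ to 3′ on the gene's strand), and capitals mark matches, on either strand, to the gamma-activated site TTCNNNGAA and to the interferon-stimulated response element (GAAA, any 2 bases, GAAA), which interferon regulatory factors bind.
Igtp, chr11:58199306-58199605, plus strand: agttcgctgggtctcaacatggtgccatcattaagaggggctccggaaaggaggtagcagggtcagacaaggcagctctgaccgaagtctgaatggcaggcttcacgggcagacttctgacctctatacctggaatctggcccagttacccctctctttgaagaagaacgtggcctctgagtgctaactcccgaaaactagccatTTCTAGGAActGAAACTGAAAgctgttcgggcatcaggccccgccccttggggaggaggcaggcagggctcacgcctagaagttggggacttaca
Tgtp1, chr11:48992197-48992496, minus strand: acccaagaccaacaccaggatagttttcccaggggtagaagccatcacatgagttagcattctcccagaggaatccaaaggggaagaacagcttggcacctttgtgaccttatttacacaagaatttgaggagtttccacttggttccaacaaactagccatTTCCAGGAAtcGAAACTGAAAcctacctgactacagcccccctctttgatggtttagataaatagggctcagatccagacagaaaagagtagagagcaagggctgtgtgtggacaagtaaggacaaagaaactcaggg
Tgtp2, chr11:49064163-49064462, minus strand: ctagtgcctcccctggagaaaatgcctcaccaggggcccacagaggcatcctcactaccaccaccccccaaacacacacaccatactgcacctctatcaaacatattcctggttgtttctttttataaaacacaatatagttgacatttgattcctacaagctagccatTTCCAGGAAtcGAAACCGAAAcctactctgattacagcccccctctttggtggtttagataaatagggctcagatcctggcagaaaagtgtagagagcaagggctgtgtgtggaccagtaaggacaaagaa

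In each of the 3 the 2 motifs lay 2 bases apart, first the gamma-activated site and then the response element, with the latter 34, 77 and 70 bases before the RefSeq start in Igtp, Tgtp1 and Tgtp2. The RefSeq start of Tgtp1 is 1926 bases from the GENCODE start of the same gene. Of the 8 fallen genes, 4 had a promoter in the table, and the response element was in 4 of 4 and the gamma-activated site in 3 of 4. Among the 34 interferon-stimulated genes tested that had a promoter, called or not, these numbers were 19 and 13. Over all 32851 promoters of the table the response element was in 3.44% and the gamma-activated site in 8.3%. In the promoters of all genes that fell, the response element was found in 8 of 67 (11.9%) and the gamma-activated site in 4 (5.97%); in those of genes that rose, each was found in 5 of 135 (3.7%). A match is a description of the letters and not a binding site.

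**Figure D3:**
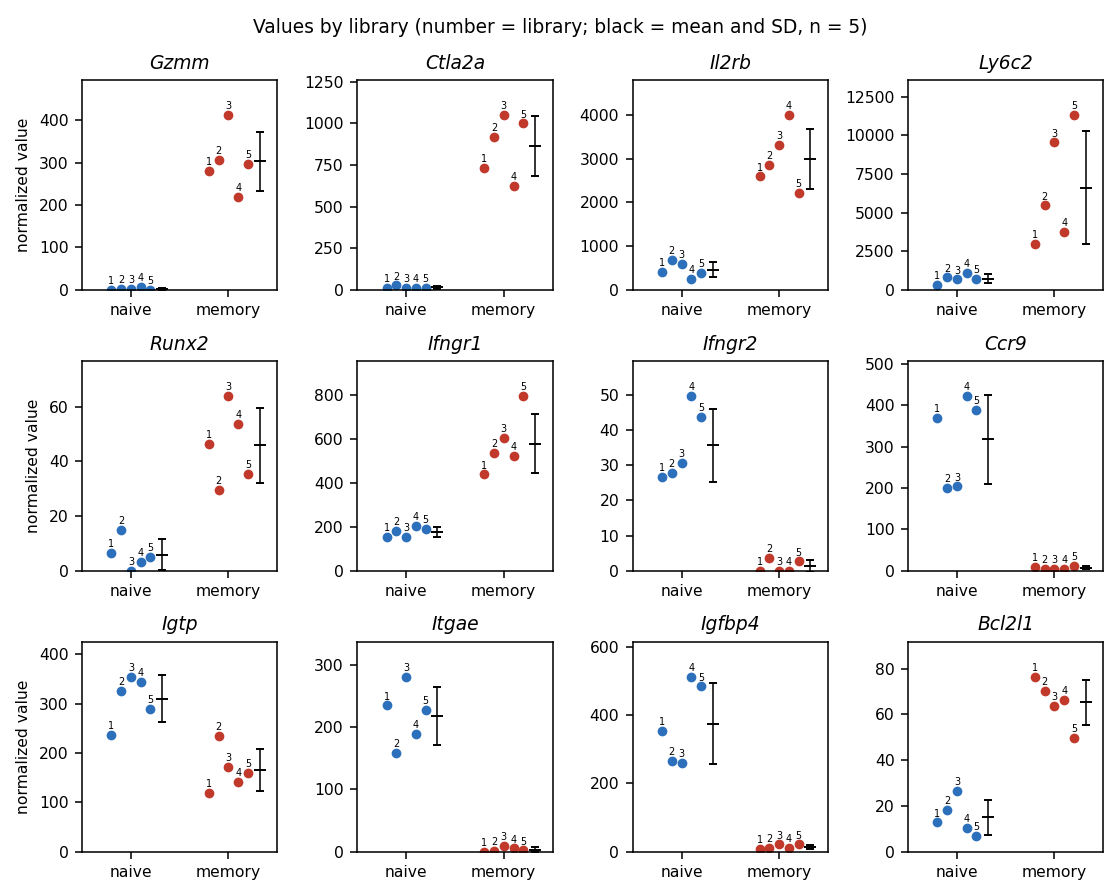
Normalized value of 12 genes in each of the 5 naive (blue) and 5 memory (red) libraries of Dock2-deficient mice; the number beside a point is the library, the black bar the mean and SD (n = 5), and each panel has its own linear axis from 0. Ifngr1 rises and Ifngr2, Ccr9 and Igtp fall, and in none of the 12 panels do the groups overlap.

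Cytotoxic granule genes were called in 8 of 21 tested members (38.1%), all upward, with a median of 0.78 (0.47 with rescaled libraries, where 6 were called). Granzyme M, encoded by Gzmm, was at 0, 1.36, 1.02, 6.42 and 0 in naive cells and 280.5, 307.5, 412, 219.6 and 297.2 in memory cells (7.19 ± 0.48). Perforin, the pore-forming protein encoded by Prf1, was at 60.01, 35.3, 23.6, 51.3 and 47.8 in naive cells and 156, 127, 149.5, 90.2 and 176 in memory cells. Its lowest memory value, 90.2 in library 4, was above its highest naive value, 60.01 in library 1 (1.69 ± 0.24, adjusted p = 0.00014). Serpinb6b, an intracellular serine protease inhibitor, went from 10.01 ± 5.42 to 52.3 ± 8.56 (2.41 ± 0.32). The lysosomal proteases Ctsw, at 391 ± 85.5 against 827 ± 330.2, and Ctsd, at 646 ± 119 against 1277 ± 445, rose by 1.03 and 0.93; in a fit of the 10 Dock2-deficient libraries alone neither passed (adjusted p = 0.052 and 0.074). The other 3 calls, Gzma (granzyme A), Nkg7 and Cst7 (cystatin F), were not kept under every omission: Nkg7 was lost without memory library 3 or naive library 3 (adjusted p up to 0.052), Cst7 without memory library 3 or naive library 5 (up to 0.056) and Gzma without memory library 1, 2, 4 or 5 or naive library 1, 2, 3 or 5 (up to 0.13).

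Secreted cytokines and chemokines were called in 5 of 13 tested members (38.5%), all upward. Ccl5 was at 26.4, 103, 18.9, 56.1 and 27.9 in naive cells and 1646, 2933, 3784, 1470.1 and 5919 in memory cells (6.13 ± 0.49). Its neighbour Ccl4, another chemokine gene, was at 4.55, 2.72, 5.12, 3.21 and 0.996 and 78.1, 44.5, 44.7, 17.9 and 22.1 (3.21 ± 0.44, adjusted p = 7.6e-05). Xcl1, which draws cross-presenting dendritic cells, was at 0, 0.679, 2.56, 0 and 3.98 in naive cells and 26.6, 24.5, 36.1, 22.1 and 35.4 in memory cells (3.90 ± 0.53); it overlaps an unnamed gene on the other strand, from which its reads cannot be told apart. Tnfsf14, which encodes LIGHT, was at 3.64, 4.08, 4.10, 2.41 and 0 and 12.4, 44.5, 34.4, 34.05 and 33.6 (3.19 ± 0.58). All 4 had groups that did not overlap. Tnfsf8 (1.07) lost its call without memory library 2, 3, 4 or 5 or naive library 1, 3 or 5 (adjusted p up to 0.15). Ifng, which encodes interferon gamma, was at 23.1, 30.9, 18.9, 0.851 and 1.77 in memory cells; libraries 1 to 3 stood above all naive values and libraries 4 and 5 among them, and it did not pass (2.21 ± 0.78, adjusted p = 0.18).

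NK and lectin-like receptors held the largest share of calls of the 27 lists: 14 of 20 tested members (70.0%), 13 upward and 1 downward, with a median of 2.97. Of 30 members in the deposited table, 20 were tested. Members at 0 in all 5 naive libraries passed the filter only through other libraries, which raises the share among those tested. Klra genes encode the Ly49 receptors of MHC class I, and Klrc1, Klrd1 and Klrk1 encode NKG2A, CD94 and NKG2D. Every naive library listed Klra6 at 0, and the memory libraries had it at 30.6, 36.7, 29.2, 83.8 and 78.03. Klra8 was likewise at 0 in naive cells and reached 79.03, 22.6, 55.3, 65.3 and 60.02 in memory cells, lowest in library 2. Klra4 and Klra7 were also at 0 in all 5 naive libraries and reached 21.01 to 53.6 and 3.25 to 48.9 in memory cells. With each naive library set at 3 reads, Klra8, Klra6, Klra4 and Klra7 were at least 16.2-fold, 14.4-fold, 9.97-fold and 6.11-fold higher on the value + 1 scale, and the list's median was 2.53. Klra3, Klra9 and Klra1 rose by 5.37, 3.91 and 3.77. Ly49 genes are near-identical in places, so reads may have been split among them.

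Klrc1 was at 0 or under 3 in every naive library and at 58.6, 55.7, 47.6, 123 and 125 in memory cells (5.71 ± 0.42). Klrk1, an activating receptor gene, was at 13.6, 9.51, 11.8, 0.802 and 6.97 in naive cells and 23.1, 46.9, 30.9, 108 and 33.6 in memory cells, with library 4 the highest by far (2.45 ± 0.54; with rescaled libraries 2.16, adjusted p = 0.069). Klrd1 was already at 60.01, 74.7, 42.5, 153 and 81.7 in naive cells and reached 159.8, 195, 237, 228 and 402 in memory cells; naive library 4 came close to the lowest memory value (1.62 ± 0.29). Klre1, another lectin-like receptor gene, rose by 4.06. The remaining 3 calls, Fcgr2b (3.48), Hcst (0.95) and Cd226 (-0.94), were near the threshold and were not kept under every omission. Fcgr2b was lost without memory library 1, 2 or 3 or naive library 1, 3, 4 or 5 (adjusted p up to 0.19), Hcst without memory library 2, 3 or 5 or naive library 1, 2, 3 or 5 (up to 0.13) and Cd226 without memory library 1, 2, 3 or 5 or naive library 1, 2, 3 or 5 (up to 0.12). Of 6 NK cell markers, Ncr1 was at 0 in every naive library and in 4 of 5 memory libraries, with 3.405 in memory library 4. Klre1 was at 0 to 2.71 in naive and 17.8 to 30.6 in memory cells. Fcer1g was at 0 to 6.11 and 7.41 to 26.5 and was called higher (2.96, adjusted p = 0.0067). Klrb1c, Tyrobp and Klrb1f reached 1.36, 3.40 and 1.60 in naive cells and 12.3, 5.31 and 2.65 in memory cells. The summed value of the 6 NK cell markers was 0 to 13.6 in naive and 30.2 to 67.2 in memory cells, and in wild-type mice 0 to 2.26 and 78.7 to 109; their part in the results was not tested.

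G protein-coupled receptors, which guide migration, were called in 11 of 28 tested members (39.3%), 8 upward and 3 downward. The median of this list was 0.05 and turned to -0.27 with rescaled libraries, where 7 were higher and 4 lower. Receptors of inflammatory chemokines were among the rises. Cxcr3 was at 13.6, 76.8, 65.03, 92.2 and 28.9 in naive cells and 344, 368, 407, 262 and 574 in memory cells (3.04 ± 0.42). Ccr2 was listed at 0 in 4 naive libraries and at 2.72 in naive library 2, against 21.9, 36.6, 18.9, 44.3 and 36.4 in memory cells (4.58 ± 0.54). Cxcr5, a receptor better known from follicular cells, was at 13.6, 78.8, 30.7, 17.6 and 14.9 in naive cells and 189.9, 198, 165, 318 and 123 in memory cells, with naive library 2 the highest of the naive values (2.89 ± 0.41, adjusted p = 0.00013).

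Receptors of other ligands moved too. S1pr5, a sphingosine 1-phosphate receptor of NK cells and effector T cells, was at 0 in 4 naive libraries and at 10.7, 12.3, 15.5, 18.7 and 14.2 in memory cells (3.56 ± 0.57). The adenosine receptor gene Adora2a went from 16.7 ± 12.01 to 62.02 ± 13.1 (2.04 ± 0.36) and the thrombin receptor gene F2r from 40.5 ± 12.9 to 141 ± 14.3 (1.82 ± 0.23). Of the falls, Ccr9, the receptor of the gut chemokine CCL25, was at 370.1, 200.4, 204, 422 and 389 in naive cells and 8.88, 3.70, 3.44, 5.11 and 12.4 in memory cells (-5.43 ± 0.42). Ramp1, a subunit of the receptor for calcitonin gene-related peptide, was at 151, 126, 93.7, 168 and 194 and 19.5, 8.64, 17.2, 17.9 and 20.3 (-3.07 ± 0.25). The call of Gpr183 (0.98) was lost without memory library 1, 3 or 5 or naive library 2, 4 or 5 (adjusted p up to 0.11), and that of Cxcr6 (-1.41) without memory library 2, 3 or 4 or naive library 2, 4 or 5 (up to 0.095). The lymph node receptor gene Ccr7 was at 1267, 1174, 1004, 1504 and 1419.9 in naive cells and 682, 704, 938, 625 and 1185 in memory cells; memory library 5 lay inside the naive range and the difference did not pass (-0.65 ± 0.19, adjusted p = 0.08). S1pr1, needed for exit from lymph nodes, did not pass either (-0.56 ± 0.24, adjusted p = 0.3).

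Integrin and adhesion genes were called in 8 of 27 tested members (29.6%), 5 upward and 3 downward. All 8 were kept in each of the 10 fits that left out 1 library. Of the 5 rises, 1 was Cd44, the gene of the sort gate, so its call was set by the sort. The list's median was 0.32 and -0.00 with rescaled libraries. Ly6c2, one of the copies encoding the surface marker Ly6C, was at 333, 799, 665, 1082 and 714 in naive cells and 2965, 5461, 9539, 3747 and 11306 in memory cells (3.11 ± 0.33). Its near-identical neighbour Ly6c1 was at 8.07, 6.33, 7.76, 7.56 and 5.30 and 22.5, 134, 292, 67.9 and 354 (3.89 ± 0.62), and reads may have been split between the pair. In both genes memory libraries 5 and 3 were the highest and memory library 1 the lowest. The integrin beta 1 gene Itgb1 was at 12.7, 34.6, 6.14, 29.7 and 25.9 in naive cells and 67.5, 233, 167, 115 and 252 in memory cells (2.95 ± 0.45), and Itgax, which encodes CD11c, was at 0 to 2.04 in naive cells and 7.10, 24.5, 14.04, 68.02 and 14.2 in memory cells (3.84 ± 0.74).

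The 3 falls in adhesion genes were Itgae, Itga4 and Pecam1. Itgae, which encodes the alpha chain of CD103, a receptor of epithelial E-cadherin, was at 235, 158, 281, 189 and 228 in naive cells and 0, 1.23, 8.59, 5.11 and 1.77 in memory cells (-6.05 ± 0.50). The alpha 4 integrin gene Itga4 was at 720.0, 549, 770.3, 284 and 475 and 225, 236, 217, 317 and 101; memory library 4 lay above naive library 4 (-1.36 ± 0.28, adjusted p = 0.0055). Pecam1, an inhibitory adhesion molecule gene, went from 137 ± 37.6 to 55.7 ± 15.9 (-1.28 ± 0.22).

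Sialyltransferases of the surface glycan list (3 of 22 called, 13.6%) went in both directions. St3gal6, which adds sialic acid to surface glycans, was at 30.01, 33.97, 29.4, 28.9 and 30.9 in naive cells and 105, 119, 115, 89.9 and 127 in memory cells. The naive values were nearly alike and the lowest memory value, 89.9 in library 4, was far above them (1.82 ± 0.22, adjusted p = 1.5e-05). St3gal1, which caps core 1 O-glycans, was at 199, 161, 142, 89.8 and 120.5 and 56.8, 41.99, 37.8, 129 and 22.1; memory library 4 lay inside the naive range (-1.49 ± 0.33, adjusted p = 0.011; 0.057 in the fit of these 10 libraries alone). Chst11, a chondroitin sulfotransferase gene, went from 7.34 ± 1.87 to 33.2 ± 17.9, a call lost without memory library 1, 2 or 3 or naive library 1, 4 or 5 (adjusted p up to 0.088).

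S100 proteins, annexins and membrane cytoskeleton genes were called in 4 of 26 tested members (15.4%), all upward; the list's median was 0.17, and -0.15 with rescaled libraries. S100a6 was at 2.73, 10.2, 8.70, 2.41 and 2.99 in naive cells and 47.9, 86.4, 110.0, 38.3 and 71.6 in memory cells (3.58 ± 0.45). Anxa2, which encodes a partner of S100 proteins at the membrane, was at 31.8, 45.5, 35.8, 14.4 and 12.9 and 108, 74.1, 119, 83.4 and 205 (2.09 ± 0.34). The unconventional myosin gene Myo1f went from 47.2 ± 16.1 to 160.0 ± 33.4 (1.77 ± 0.30). Vim, which encodes vimentin, rose by 0.98, a call lost without memory library 3 or 5 or naive library 1 (adjusted p up to 0.07). The galectin gene Lgals1 had groups that did not overlap and missed the threshold (0.85 ± 0.24, adjusted p = 0.07).

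Protease inhibitors were called in 5 of 9 tested members (55.6%), 4 upward and 1 downward. Ctla2a and Ctla2b encode small proteins related to the propeptide of cathepsins. Ctla2a was at 10.8, 25.8, 11.4, 10.5 and 11.2 in naive cells and 731, 919, 1049.7, 625 and 999.9 in memory cells, with naive library 2 apart from the other 4 naive values (5.92 ± 0.25, adjusted p = 1.8e-12). Ctla2b was at 0, 2.80, 1.54, 0 and 1.16 and 68.6, 110.2, 223, 59.1 and 120.3 (5.84 ± 0.44); the 2 are close copies and may have shared reads. Timp2, an inhibitor of matrix metalloproteinases, was the fall, from 15.3 ± 5.05 to 3.20 ± 1.15 (-1.95 ± 0.43).

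**Figure D4:**
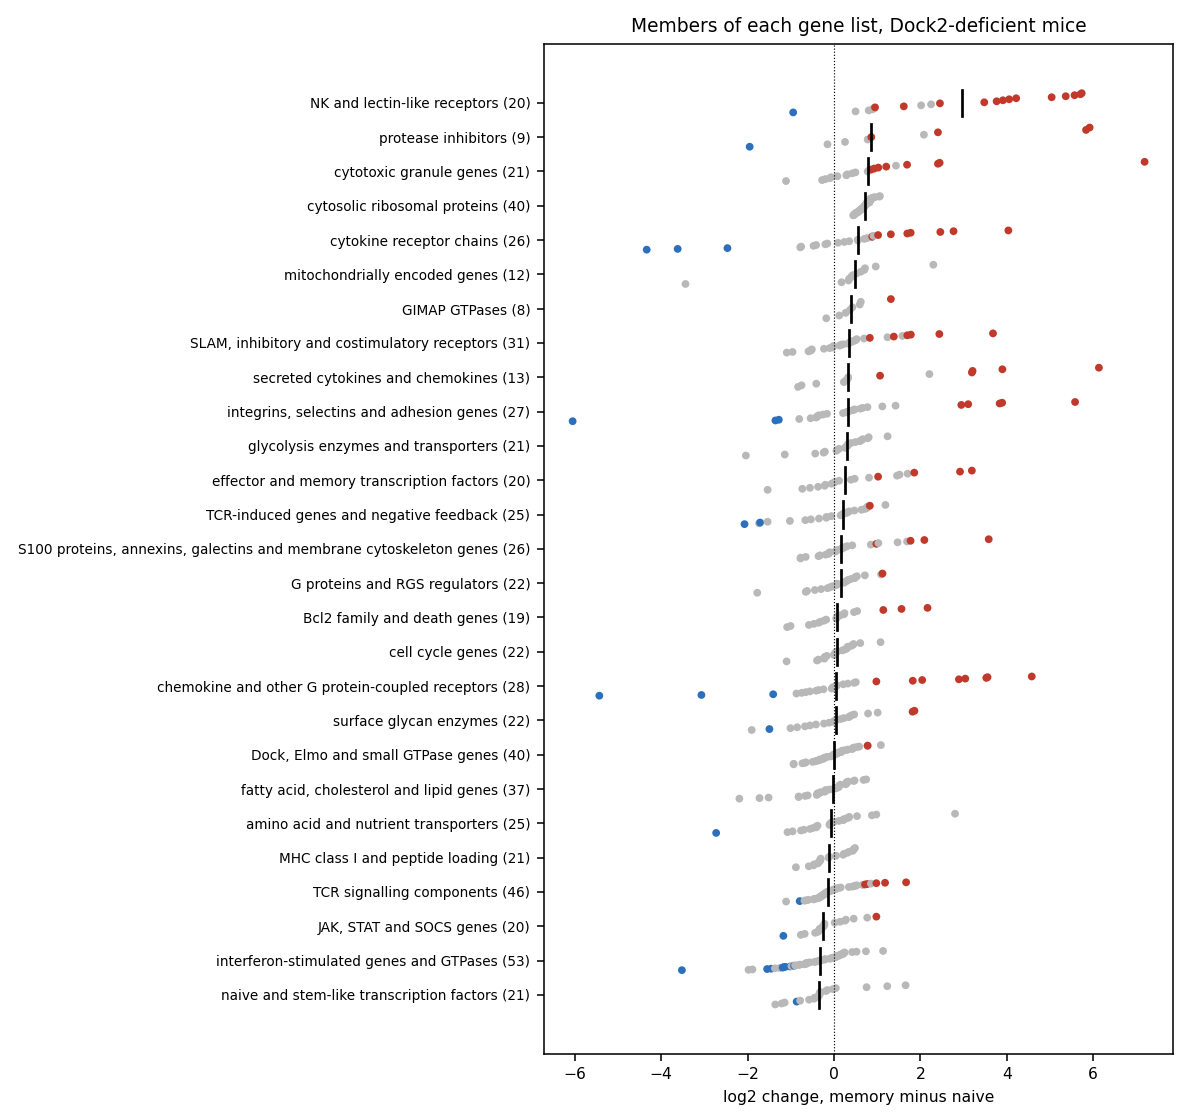
Change of each tested member (points) of the 27 gene lists between memory and naive cells (x axis, log2, memory minus naive), with the number tested in brackets; red points were called higher, blue lower, grey not called, and the black bar is the list's median. NK and lectin-like receptors have a median of 2.97 and 13 red points, and interferon-stimulated genes 8 blue points and no red one.

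T cell receptor signalling genes were called in 6 of 46 tested members (13%), 5 upward and 1 downward, with a median of -0.15; with rescaled libraries 1 was higher and 2 were lower. Sla2, an adaptor that dampens receptor signalling, was at 199, 248, 225, 239 and 214 in naive cells and 99.6, 139.7, 124, 154 and 135 in memory cells (-0.79 ± 0.17, adjusted p = 0.0074). Gab3, a scaffold adaptor gene, was at 36.4, 12.2, 33.8, 40.1 and 50.1 and 94.1, 114, 94.5, 101 and 111 (1.67 ± 0.34). The other 4 calls, Sla, Txk, Tec and Malt1, were rises of 0.72 to 1.182. Sla was lost without memory library 2, 4 or 5 or naive library 2, 4 or 5 (adjusted p up to 0.1), Txk without memory library 1, 3 or 4 or naive library 1, 2, 4 or 5 (up to 0.062), Tec without memory library 2, 3 or 5 or naive library 1, 2, 3 or 5 (up to 0.13) and Malt1 without memory library 1, 2 or 4 or naive library 2 or 3 (up to 0.1). The list of receptor-induced genes gave 3 calls of 25 (12%), 2 of which were not kept under every omission. Izumo1r (-1.71), a folate receptor family gene, was lost without memory library 2 or 3 or naive library 1, 2, 4 or 5 (adjusted p up to 0.15). The other, Sh2d2a, is described below. Egr2, an early target of the receptor, was at 12.7, 12.2, 39.4, 27.3 and 29.9 in naive cells and 1.78, 7.41, 3.44, 3.40 and 9.73 in memory cells (-2.07 ± 0.44, adjusted p = 0.0084), while the acute target Nr4a1 was at 48.8 ± 22.4 and 71.4 ± 34.7 and did not pass (adjusted p = 0.66). Of the Dock, Elmo and small GTPase genes 1 of 40 was called (2.50%, near the share of all genes): Arhgef3, an exchange factor gene, rose by 0.78, and with rescaled libraries it did not pass (adjusted p = 0.3). Dock8 (-0.73 ± 0.33), Dock10 (-0.93 ± 0.32) and Rac2 (0.42 ± 0.26), the Rac of blood cells, did not pass; the sign of Rac2 turned with quantile normalization.

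SLAM family, inhibitory and costimulatory receptors were called in 6 of 31 tested members (19.4%), all upward, with a median of 0.35 (0.03 with rescaled libraries, where 4 were higher and 2 lower). Sh2d1a, which encodes the SLAM adaptor SAP, was at 36.2, 34.1, 24.6, 46.5 and 40.8 in naive cells and 122, 101, 124, 122 and 163 in memory cells; no value overlapped (1.78 ± 0.22, adjusted p = 2e-05). Slamf7 was at 8.18, 21.1, 4.61, 6.42 and 8.96 and 51.7, 24.7, 41.2, 106 and 63.7 (2.44 ± 0.48). The costimulatory receptor gene Cd28 went from 72.00 ± 26.3 to 184 ± 39.5 (1.39 ± 0.26). Entpd1, which encodes the ectonucleotidase CD39, was at 0.909, 0, 0, 5.61 and 2.99 in naive cells and 43.2, 18.5, 17.2, 58.8 and 17.7 in memory cells (3.68 ± 0.79). Lair1, a collagen receptor gene, went from 15.03 ± 8.03 to 45.9 ± 7.24 (1.70 ± 0.38; with rescaled libraries 1.39, adjusted p = 0.069). Sh2d2a (0.83) lost its call without memory library 1, 2, 3, 4 or 5 or naive library 1, 3, 4 or 5 (adjusted p up to 0.12). Cd27, of the tumour necrosis factor receptor family, was at 277 ± 34.6 and 385 ± 101 and did not pass (adjusted p = 0.27).

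Genes of both survival and death rose within the Bcl2 family, where 3 of 19 tested members were called (15.8%) and the median was 0.07 (-0.24 with rescaled libraries). Bcl2l1, which encodes the survival protein Bcl-xL and its short form, was at 12.7, 18.3, 26.6, 10.4 and 6.97 in naive cells and 76.3, 70.4, 63.6, 66.4 and 49.5 in memory cells (2.17 ± 0.35, adjusted p = 0.00052). Bcl2, another survival gene, was at 118, 91.7, 156, 171 and 102 and 293, 241, 342, 209.5 and 309.4 (1.14 ± 0.21, adjusted p = 0.0021; with rescaled libraries 0.82, adjusted p = 0.055). Bcl2l11, which encodes the death protein Bim, was at 14.6, 13.6, 29.2, 16.04 and 36.9 and 79.9, 60.5, 48.1, 69.8 and 56.97 (1.56 ± 0.27, adjusted p = 0.00095). In all 3 the groups did not overlap. Mcl1, a survival gene of resting lymphocytes, was at 141 ± 20.3 and 113 ± 30.99 and did not pass (adjusted p = 0.51).

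Metabolic and housekeeping genes were called little or not at all. None of 21 glycolysis genes (Ldha 0.50, adjusted p = 0.43), 37 lipid genes, 22 cell cycle genes (Mki67 0.40, adjusted p = 0.86), 21 genes of MHC class I and peptide loading, 12 mitochondrially encoded genes or 40 cytosolic ribosomal protein genes passed. All 40 ribosomal protein genes had values above 0, between 0.45 and 1.06 with a median of 0.72 (0.39 with rescaled libraries and 0.11 with quantile normalization). In wild-type mice the median change of these 40 genes was -0.14. Of 25 nutrient transporters 1 was called (4%): Slc6a19, a neutral amino acid transporter, fell from 24.03 ± 9.62 to 3.71 ± 3.80, a call lost without naive library 2 (adjusted p = 0.052). Gimap4, of the small GTPases of lymphocyte survival, was the 1 call of 8 in its family (12.5%), at 312.8, 485, 311.8, 582 and 578 in naive cells and 710.0, 929, 1072, 1114 and 1956 in memory cells (1.32 ± 0.25). G proteins and their regulators gave 1 call of 22 (4.55%), Gng2 (1.12), lost without memory library 1, 2, 3, 4 or 5 or naive library 1, 2 or 5 (adjusted p up to 0.13).

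The promoters of genes that rose were searched for the motifs of the factors named above. The Runt motif TGTGGT was in 33 of 135 (24.4%), against 12.5% of the 6857 tested genes with a promoter in the table, 16.8% of all 32851 promoters and 9 of 67 (13.4%) among genes that fell. The T-box motif AGGTGT was in 15 of 135 (11.1%) of the promoters of genes that rose, 10.4% of those tested and 15 of 67 (22.4%) of those that fell. The motif CTTTGA of TCF and LEF factors was in 14.1%, 11.9% and 13.4% in the same order. No test was made of these shares. The promoters of Prf1 and Cxcr3 are shown as examples of a T-box and of Runt motifs near the start of genes that rose, with the matches, on either strand, in capitals (RefSeq, GRCm38.p6).
Prf1, chr10:61297586-61297885, plus strand: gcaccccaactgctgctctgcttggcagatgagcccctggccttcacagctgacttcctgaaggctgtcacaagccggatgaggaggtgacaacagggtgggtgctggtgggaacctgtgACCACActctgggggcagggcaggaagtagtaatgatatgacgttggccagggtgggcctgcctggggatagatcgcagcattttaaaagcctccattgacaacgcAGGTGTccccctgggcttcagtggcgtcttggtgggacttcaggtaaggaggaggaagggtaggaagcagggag
Cxcr3, chrX:101734098-101734397, minus strand: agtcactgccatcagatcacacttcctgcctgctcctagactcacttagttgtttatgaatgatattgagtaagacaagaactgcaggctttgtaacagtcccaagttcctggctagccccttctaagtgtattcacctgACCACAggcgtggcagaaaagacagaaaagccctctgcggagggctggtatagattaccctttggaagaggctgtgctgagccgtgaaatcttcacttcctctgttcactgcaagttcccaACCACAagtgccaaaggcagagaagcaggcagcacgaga

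In Prf1 the T-box match AGGTGT began 24 bases and the Runt match 130 bases before the start site. In Cxcr3 a Runt match began 110 bases before the start site and another 11 bases after it. No T-box match lay in the Cxcr3 window. Of the other risen genes searched individually, Klrc1 and Gzmm had a Runt match and no T-box match. Ctla2a and Ctla2b had neither motif, and no promoter sequence was available for Il2rb.

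Many of the called genes were neighbours on the chromosome. Of the 266, 54 lay in 22 runs of adjacent tested genes that were called in the same direction, and 4 runs had at least 3 genes (GRCm38, GENCODE M21). The longest covered the Ly49 cluster and Klrc1, with 9 genes in chr6:129666015-130386874, and Klre1, Klrd1 and Klrk1 lay next to it in chr6:129577905-129623864. Heatr9, Ccl5 and Ccl4 formed a run in chr11:83511736-83664683, and St3gal6, Gpr15 and Cldnd1 another in chr16:58468125-58734251. All 4 of these runs were higher in memory cells. The pairs included Il18r1 with Il18rap and Ly6c1 with Ly6c2 among the rises, and Gbp10 with Gbp6, Ggt1 with Ggt5 and Ifngr2 with Tmem50b among the falls. Tmie and Als2cl, both lower, overlap by 244 bases on opposite strands, so reads in that stretch cannot be told apart. Over all 9392 adjacent pairs of tested genes, 32 were called in the same direction.

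The same contrast in wild-type mice, which shares no library with this one, called 1.88% of genes higher and 0.646% lower. Of the 167 rises in Dock2-deficient cells 110 (65.9%) were also called higher in wild type, and of the 99 falls 39 (39.4%) were also called lower. Trdc was called in the opposite direction in wild type. Among the 116 not called in wild type, the wild-type change had the same sign in 112. A call in 1 genotype and not in the other is not a difference: the difference itself passed for 3 genes of 9437 (0.0318%), and for 0 of those 116 (24 at an unadjusted p under 0.05, by limma). At that unadjusted level it held for 492 of all genes. With 1 Dock2-deficient library left out, 0 to 2 genes passed. The column names write a different strain for each genotype, though the strain field is the same. Effects of Dock2 and of strain therefore cannot be told apart in any difference between these genotypes.

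Tbx21 rose less in Dock2-deficient cells. It was at 18.2, 5.42, 2.79 and 3.39 in wild-type naive libraries 1 to 4 and at 379.7, 569.9, 438 and 648 in wild-type memory libraries 1 to 4, a rise of 6.21 ± 0.40 against 2.92 ± 0.36 in Dock2-deficient cells (difference -3.29 ± 0.54, adjusted p = 0.029). Every Dock2-deficient naive library was above every wild-type one, while the memory values of the genotypes overlapped. The call was kept in 3 of 10 fits, those without memory library 4 or naive library 1 or 3, and without naive library 4 the adjusted p was 0.094. Tmie, a gene of the mechanotransduction channel of hair cells, was at 42.4, 54.2, 39.1 and 44.04 in wild-type naive and 0, 1.26, 1.29 and 0 in wild-type memory cells; in Dock2-deficient cells it was at 38.2, 56.4, 53.6, 48.9 and 41.8 and 10.7, 12.3, 15.5, 7.66 and 7.08 and thus fell less far (difference 2.82 ± 0.50, adjusted p = 0.049), a call kept in none of the 10 fits (adjusted p from 0.0505 without memory library 5 to 0.141 without memory library 2).

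Trdc, which encodes the constant region of the delta chain of the T cell receptor, went in opposite directions. In Dock2-deficient mice it was at 41.98, 34.00, 19.5, 45.7 and 22.9 in naive cells and 10.7, 13.6, 6.89, 11.1 and 9.79 in memory cells (-1.52 ± 0.35), and in wild-type mice at 2.43, 3.63, 4.19 and 5.65 and 8.32, 18.9, 14.6 and 16.6 (1.63 ± 0.39; difference -3.16 ± 0.52, adjusted p = 0.029). The difference kept its call in 1 of 10 fits, that without naive library 3, and had an adjusted p of up to 0.11 (without naive library 4). The summed value of 7 markers of gamma delta, NKT and MAIT cells was 39.9 to 87.4 in Dock2-deficient naive, 19.5 to 31.0 in Dock2-deficient memory, 5.18 to 11.3 in wild-type naive and 51.4 to 81.3 in wild-type memory libraries. Trdc is 1 of the 7. Without it the sums were 18.3 to 41.7 and 8.88 to 24.1 in Dock2-deficient naive and memory libraries, which overlapped, and 2.75 to 5.65 and 43.1 to 64.7 in wild type, which did not. Of the 7 markers, Sox13 and Blk were at 0 in all 5 memory libraries and in 4 of 5 naive ones of Dock2-deficient mice. Tcrg-C2 was at 4.76 to 21.6 in naive and 6.17 to 11.6 in memory cells. Tcrg-C4 was at 6.66 to 13.6 and 0 to 8.59, Tcrg-C1 at 0 to 8.04 and 0 to 7.02. Zbtb16 reached 0.918 and 1.23. The part of gamma delta, NKT and MAIT cells in the result was not tested. Cd163l1, a scavenger receptor gene picked out after its values were seen, was at 12.7, 7.47, 6.14, 12.8 and 6.97 in naive cells and 122, 75.3, 92.8, 60.4 and 96.4 in memory cells (3.16 ± 0.33; wild type 5.88; difference -2.71 ± 0.49, adjusted p = 0.051).

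**Figure D5:**
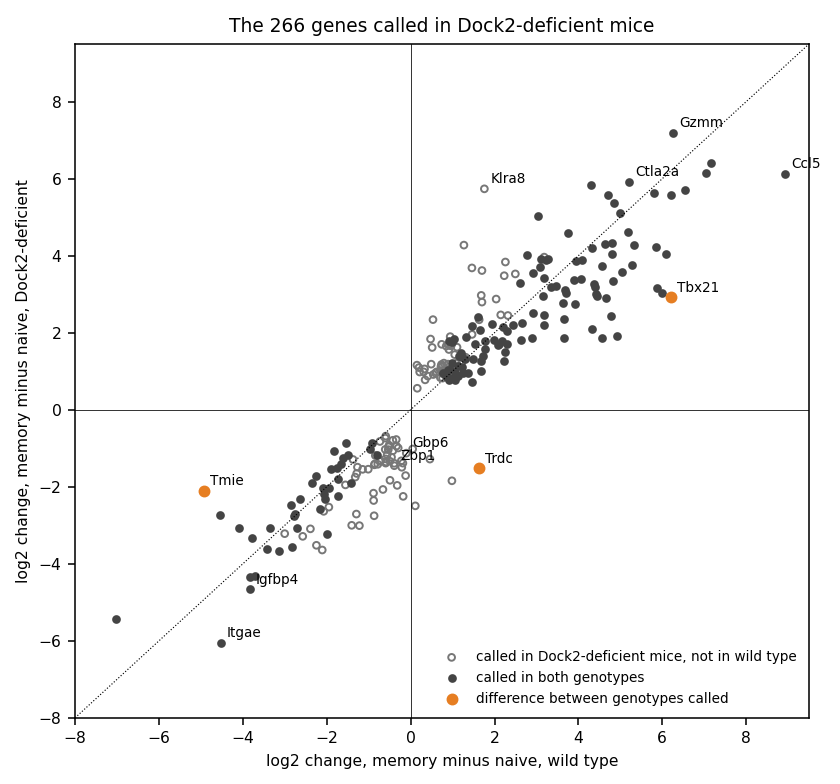
Change between memory and naive cells in Dock2-deficient mice (y axis, log2) against the same change in wild-type mice (x axis, log2) for the 266 genes called in Dock2-deficient mice. Filled grey points were called in both genotypes, open points were not called in wild type, and orange points are the 3 genes whose difference between genotypes passed (Tbx21, Tmie and Trdc); the dotted line marks equal change.

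Some libraries stood apart in the genes above. Naive library 2 had the highest naive value in 54 of the 167 rises (32.3%; 23.2% of all tested genes) and the highest naive sums of B cell, NK cell, CD4 T cell and red cell or platelet markers, while those of gamma delta and myeloid cells were highest in naive library 4. Igkc, an immunoglobulin light chain gene, was at 550.3 in naive library 2 and at 0.512 to 64.2 in the other naive libraries. The summed markers of red cells and platelets were at 329.5 in naive library 2, against 6.97 as the lowest naive sum. The part of these other cells in the results was not tested. In the fit that left out naive library 2, there were 152 genes higher and 69 lower. Memory library 5 had the highest memory value in 56 of the 167 rises (33.5%; 25.2% of all tested genes), and without it 144 were higher and 78 lower. The 6 B cell markers summed to 447 to 1677 in naive and 534 to 868 in memory cells; Ighm made up most of that (420.4 to 1070.0 and 474 to 827), Cd79b was at 21.3 to 50.9 in the 10 libraries, and Ms4a1 and Cd79a were under 5 in all of them. The summed CD4 and regulatory T cell markers were at most 27.95 in naive cells and 9.32 in memory cells, and the CD8 T cell markers summed to 8685 to 18543 in every library. In bulk RNA, fewer cells of a type and less RNA per cell cannot be told apart.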

How the data were processed

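Total RNA of sorted CD8 T cells (a Qiagen RNAeasy kit, Smartseq2, per the labels' protocols) was measured in 18 libraries. The submitters' processing notes name bcl2fastq, FastQC, RSEM and the build mm10, with no versions, settings or order. The values are a normalized signal that the authors deposited as 1 table: per gene and library, their steps fit RSEM's expected reads multiplied by 1 factor per library, read here from the values. Per library, 59.5% to 69.3% of the values above 0 came out within 0.005 of a whole read, so no count model was run. Of 46983 gene identifiers, 98.9% were found in GENCODE M21, which gave positions.

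Genes with at least 10 in at least 4 of 18 libraries were tested on log2(value + 1) with limma 3.58.1 (R 4.3.3), 1 mean per group over all 18 libraries (14 residual degrees of freedom), variance trend, two-sided, Benjamini-Hochberg adjustment over the 9437 genes, threshold 0.05. Every adjusted p is from this fit or from the named alternative. The fit was also run on simulated data, in which only genes averaging at least 50 were given a change. A gene that did not pass is not thereby shown to be unchanged. The Dock2-deficient libraries held 2215987 to 8257768 expected reads, and low values rest on few of them. Genes named are the 20 largest rises and falls with a mean of at least 50 and no overlap (unnamed models, pseudogenes and receptor segments left out), called members of 27 gene lists, up to 4 well known uncalled members per list, genes whose difference between genotypes passed, and Dock2 and Cd44. The comparison, gene lists and tests were chosen with earlier results of these data known. Alternatives were pseudocounts of 0.5 and 5, other filters, scalings, weights and libraries, the replicate block and, added after seeing the data, leaving out library 5 of both groups. Some named genes are not reported here.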

Additional observations from a re-analysis of the deposited data

Results flagged for a closer look

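In groups of 5 libraries, 26 groups, among those of the 145 named genes and the library measures, had 1 library whose distance from the nearest of the other 4 was most of the group's range (Dixon's 95% limit, which chance passes in about 1 of 20 groups); of these, 7 were of naive library 2. The normalized value of the library that stood apart is given with the range of the other 4 libraries of its group in brackets. Naive library 1 was high in Klra3 0.909 (0 in all 4). Naive library 2 was high in Ctla2a 25.8 (10.5 to 11.4), Gas7 19.5 (0 to 0.810), Il10ra 41.4 (18.4 to 19.1), Ccr2 2.72 (0 in all 4), Klra1 1.36 (0 in all 4) and Irgm1 245 (157 to 166) and low in Gab3 12.2 (33.8 to 50.1). Naive library 3 was high in Gbp9 284 (145 to 162). Naive library 4 was high in S1pr5 2.41 (0 in all 4) and low in Il18r1 10.4 (28.1 to 37.0) and Txk 236 (279 to 295). Naive library 5 was low in Tnfsf14 0 (2.41 to 4.10). Memory library 1 was high in Gpr183 254 (128 to 152) and low in Tnfsf14 12.4 (33.6 to 44.5) and Gbp2 37.3 (72.9 to 78.7). Memory library 2 was low in Ramp1 8.64 (17.2 to 20.3), Timp2 1.23 (3.44 to 4.26), Klra9 5.87 (30.3 to 37.1) and Klra8 22.6 (55.3 to 79.0). Memory library 3 was low in Tmem50b 27.5 (42.0 to 47.8). Memory library 4 was high in Plek 400.1 (258 to 289) and Stat4 409 (305.3 to 321). Memory library 5 was low in Als2cl 91.1 (234 to 290.2), Tgfbr3 0.885 (8.59 to 16.2) and Mcl1 61.9 (112 to 138).

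The change between memory and naive cells differed between genotypes, by limma's test of the difference, in 3 genes. The difference, Dock2-deficient minus wild type on the log2 scale, was -3.29 for Tbx21, 2.82 for Tmie and -3.16 for Trdc, and none of the 3 passed in all 10 fits that left out 1 library.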

How the results depend on the processing

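Genes called in Dock2-deficient memory against naive cells numbered 266. They ranged from 203 to 321 (128 to 189 higher, 69 to 132 lower) when 1 of the 10 libraries was left out; 176 of the 266 passed in all 10 such fits. Library quality weights gave 450 genes, 269 higher and 181 lower. Rescaling to a common total without Rn18s-rs5 and mitochondrial genes gave 98 higher and 157 lower. Without library 1 of both groups, the pair with Xist, 63 genes were lower. For the counts in Dock2-deficient mice, the other settings, among them pseudocounts of 0.5 and 5, 2 other filters, quantile normalization and no variance trend, stayed within 1.5 times these counts.

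The difference between genotypes, 3 genes, gave 0 without a filter (1005 at an unadjusted p under 0.05), 0 with the replicate block (473), 0 without library 1 of both groups (464), 0 without library 5 of both groups, chosen after seeing the data (418), and 0 when memory library 4 of wild-type and memory library 5 of Dock2-deficient mice were both left out (337), all by limma. It gave 1 with the stricter filter, 5 with weights, 9 without the variance trend, and 0 to 2 when 1 library was left out. Fewer samples or more genes tested apply to the omissions and to the lack of a filter; for the other settings the cause was not tested.

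The sign of Rac2, not called, turned to -0.17 with quantile normalization. The labels do not say whether equal replicate numbers mark a shared animal; library 1 of both groups held Xist. Deviations of same-numbered naive and memory libraries correlated at 0.13, 0.06, -0.06, -0.25 and 0.30 in Dock2-deficient and at -0.02, 0.03, 0.13 and 0.01 in wild-type mice, and not every library correlated best with its own number. With the replicate block 218 genes were called, 136 higher and 82 lower, 208 of them among the 266. Depth limits genes under about 5 units, which rest on few reads.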
